A study of Mus musculus with 9 samples.

Results

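The proteasome is the barrel-shaped protease that degrades ubiquitin-tagged proteins in the cytosol and nucleus. Its genes were followed in mouse skin treated with imiquimod, with and without oral vanillin. Members were all probes whose gene symbol in the platform's probe annotation begins with Psma, Psmb, Psmc, Psmd, Psme or Psmg followed by a digit, which gave 50 of the 26423 probes on the array and 46 genes. A total of 4 genes (Psmb1, Psmd8, Psmd10 and Psmg4) had 2 probes, and no probe was named Psma3 or Psmb3. The symbol rule also took in Psmc3ip, a meiotic recombination factor that shares only the name.

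RNA of female BALB/c mice was labelled with Cy5 and measured on 9 arrays in 3 groups of 3. In the mock group the shaved back was covered with Vaseline cream for 7 days. The IMQ group was given imiquimod, which activates a toll-like receptor and is used to provoke psoriasis-like inflammation, at that site for as long. The vanillin group received imiquimod on the skin and 100 mg/kg vanillin by mouth, so no group received vanillin alone. The labels give no ages and name no individual animals. What the p-values weigh is thus the variation among the arrays hybridised, and part or all of that variation may be technical.

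The catalytic core, the 20S particle, is a stack of 4 rings built from alpha subunits (Psma genes) and beta subunits (Psmb genes), and the 19S cap of ATPases (Psmc) and non-ATPase subunits (Psmd) recognises, unfolds and feeds substrates into it. In most tissue cells the proteolytic sites are carried by Psmb6, Psmb7 and Psmb5. Under interferon-gamma, and constitutively in many leukocytes, newly assembled cores carry Psmb9, Psmb10 and Psmb8 in their place. This immunoproteasome, together with the PA28 cap of Psme1 and Psme2, is known for cutting proteins into peptides for MHC class I presentation.

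Psmb8 and Psmb9 lie beside the peptide transporter genes Tap1 and Tap2 in the mouse MHC region, in the order Psmb9, Tap1, Psmb8, Tap2 on the reference annotation. The 250 bases before the RefSeq start sites of these inducible genes and of their constitutive partners Psmb5 and Psmb6 are printed because the inducible and constitutive genes of these pairs are the comparison on which the results turn. They are given 5′ to 3′ on the gene's strand, from RefSeq on GRCm38.p6. The windows are chr17:34197945-34198194 (plus strand) for Psmb8, chr17:34187331-34187580 (minus strand) for Psmb9, chr14:54617996-54618245 (minus strand) for Psmb5 and chr11:70525107-70525356 (plus strand) for Psmb6. Capitals mark matches on either strand to the gamma-activated site TTCNNNGAA, the interferon response element (GAAA and GAAA separated by any 2 bases) or the antioxidant response element core TGACNNNGC, the last a sequence bound by the proteasome gene regulator Nfe2l1.
Psmb8: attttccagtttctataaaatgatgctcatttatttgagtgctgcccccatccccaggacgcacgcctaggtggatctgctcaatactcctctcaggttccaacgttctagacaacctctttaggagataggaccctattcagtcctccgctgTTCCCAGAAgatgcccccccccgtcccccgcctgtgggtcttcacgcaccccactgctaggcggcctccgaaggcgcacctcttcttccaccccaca
Psmb9: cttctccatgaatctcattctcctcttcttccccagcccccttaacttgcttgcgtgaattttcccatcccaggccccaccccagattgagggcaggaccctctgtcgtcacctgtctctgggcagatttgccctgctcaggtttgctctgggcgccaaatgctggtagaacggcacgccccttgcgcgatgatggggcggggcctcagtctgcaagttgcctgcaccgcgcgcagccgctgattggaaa
Psmb5: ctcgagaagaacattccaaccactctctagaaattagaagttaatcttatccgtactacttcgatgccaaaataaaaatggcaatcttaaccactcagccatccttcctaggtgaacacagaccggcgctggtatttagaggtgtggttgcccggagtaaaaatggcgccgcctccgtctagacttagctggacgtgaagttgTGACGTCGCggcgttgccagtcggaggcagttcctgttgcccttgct
Psmb6: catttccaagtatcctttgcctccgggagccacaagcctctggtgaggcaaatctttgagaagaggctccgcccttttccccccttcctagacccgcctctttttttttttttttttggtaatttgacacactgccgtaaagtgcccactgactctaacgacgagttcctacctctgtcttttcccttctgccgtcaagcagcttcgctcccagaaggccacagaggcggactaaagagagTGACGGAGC
Psmb8 held a single match, TTCCCAGAA, which begins 97 bases before the start. Psmb5 held TGACGTCGC, 47 bases before it, and Psmb6 held TGACGGAGC, 9 bases before it. Psmb9 held none of the 3 motifs in this window. The promoter table has windows for 38 of the 46 genes. The gamma-activated site occurred in 2 of the 38 genes (Psmb8 and the assembly chaperone gene Psmg1) and in 7.02% of all 32851 windows of this length. The interferon response element occurred in 2 (Psmd4 and Psmd9) and in 2.98% of windows. The antioxidant response element core occurred in 5 (Psmb5, Psmb6, Psmc6, Psmd9 and Psmd12) and in 10.2% of windows. A match is a run of letters, not a shown binding site.

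Array medians ran from 629 to 631 in linear intensity, and precision is limited by there being 3 arrays in a group. Keratinocyte markers had a median intensity percentile of 99.6 among all probes and skeletal muscle markers one of 98.7. The tissue label is skin while the extraction text names muscle. Among the members, the spread between arrays was largest in mock skin, with a median SD of 0.18 log2 units, against 0.04 in IMQ and 0.11 in vanillin skin (3 arrays each). Mock replicate 1 stood more than 0.5 log2 units from the mean of the other mock arrays for 9 of the 50 members (18%) and for 10.3% of all probes. Relative to the other mock arrays, Psmb10 stood at -1.51 and Psmb8 at -0.92 log2 units on it, and Psmb8 and Psmb10 against mock are given with and without it. Mock replicate 2 gave the farthest single reading among the members, -2.42 log2 units relative to the others for the ATPase gene Psmc4. Over all probes vanillin replicate 3 stood apart most often. It was more than 0.5 log2 units from the mean of the other vanillin arrays for 20.9% of all probes and for 3 of the 50 members (6%).

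**Figure D1:**
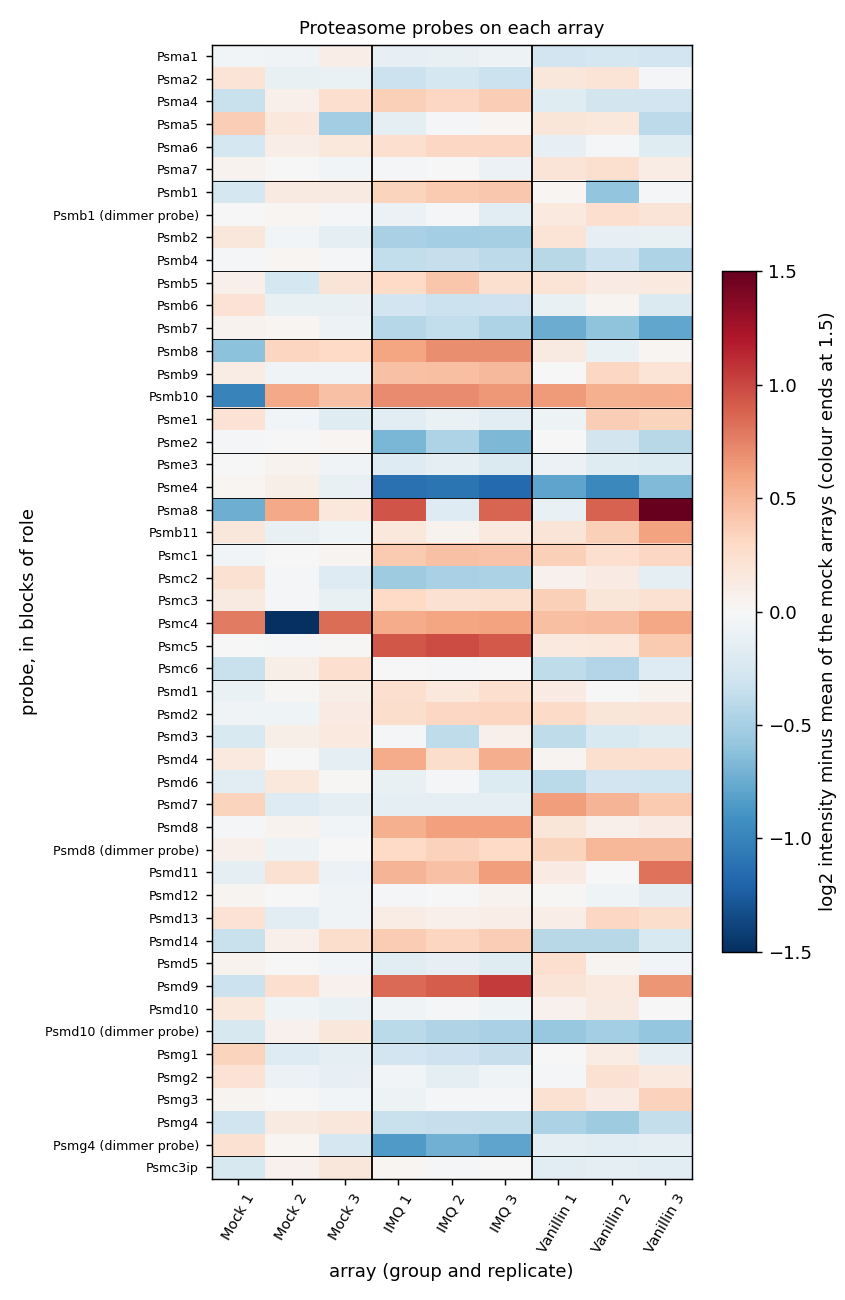
Heat map of log2 intensity minus the mean of the mock arrays for the 50 proteasome probes (rows, in blocks of role) on the 9 arrays (columns); colours end at 1.5 log2 units. The IMQ arrays resemble each other closely, while mock replicate 1 is low for Psmb8 and Psmb10 and mock replicate 2 for Psmc4.

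With imiquimod, proteasome genes moved by small amounts and in both directions. Of the 50 probes, 21 were called in IMQ against mock (limma, Benjamini-Hochberg adjusted p under 0.05 over all probes), 10 higher and 11 lower. That was 42% of the members, beside 53.6% of all probes called in either direction, 24.0% higher and 29.6% lower. Only Psme4 was called with a change of at least 2-fold, 1 of 50 probes beside 13.5% of all probes. The median size of change was 0.32 log2 units for the members and 0.43 for all probes, and 22% of members and 43.6% of all probes moved by more than 0.5. The groups of 3 arrays did not overlap for 33 of the 50 members (66%), beside 68.0% of all probes.

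**Figure D2:**
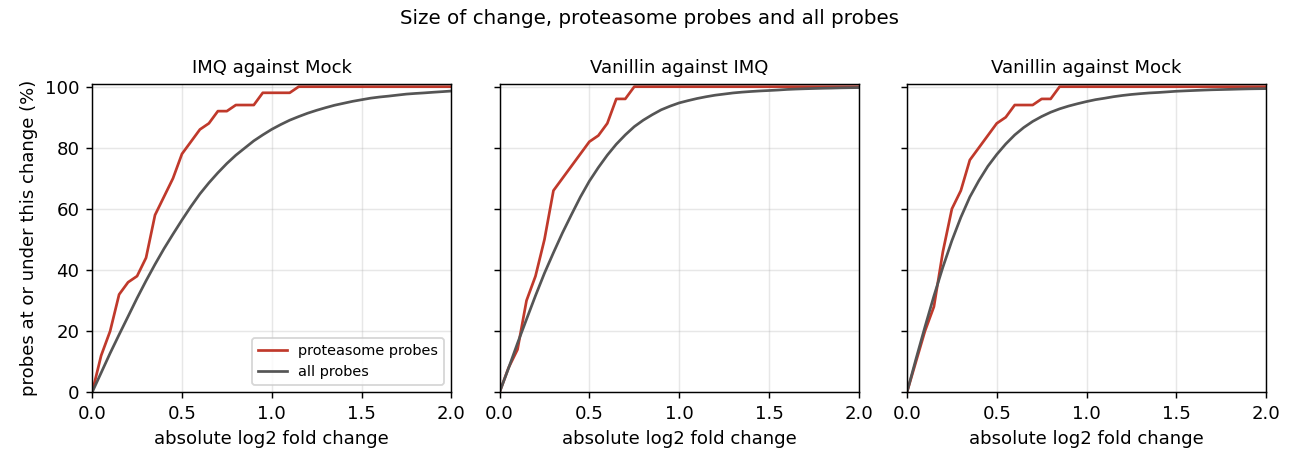
Cumulative share of probes (y axis, percent) at or under each absolute log2 fold change (x axis) in the 3 comparisons, for the 50 proteasome probes and for all 26423 probes. In IMQ against mock the median size of change was 0.32 log2 units for the members and 0.43 for all probes.

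Of the inducible genes, Psmb8 and Psmb9 rose with imiquimod, Psmb10 and Psme1 were not called, and Psme2 fell. Psmb8, the inducible chymotrypsin-like subunit, read 12.70, 13.64 and 13.61 on the log2 intensity scale in mock skin, 13.91, 14.01 and 14.01 in IMQ skin and 13.45, 13.21 and 13.34 in vanillin skin. All IMQ arrays lay above all mock arrays, and mock replicate 1 was low. The change of Psmb8 was 0.66 ± 0.23 (log2 fold change ± SE, adjusted p = 0.0346), or 1.58-fold. Without mock replicate 1 it was 0.35 (adjusted p = 0.0148). The call was lost when any of the 3 IMQ arrays was left out (0.64 to 0.70, adjusted p = 0.0670 to 0.0879). It was lost too when the vanillin arrays were not fitted (adjusted p = 0.0549).

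Psmb9, the inducible subunit at the caspase-like site, read 12.11, 11.94 and 11.95 in mock, 12.44, 12.45 and 12.49 under IMQ and 11.99, 12.32 and 12.21 with vanillin. The IMQ arrays lay close together above every other array. Its rise of 0.46 ± 0.10 (SE, adjusted p = 0.00483), 1.38-fold, was called in all 9 fits with 1 array left out. Psmb10, the inducible trypsin-like subunit, read 11.66, 13.23 and 13.11 in mock, 13.38, 13.38 and 13.32 under IMQ and 13.31, 13.20 and 13.21 with vanillin. The IMQ arrays were above all mock arrays, by little for replicates 2 and 3. The difference of 0.69 ± 0.35 was not called (SE, adjusted p = 0.127). It was 0.19 (adjusted p = 0.0832) without mock replicate 1, and was called at 0.97 (adjusted p = 0.0479) without mock replicate 2.

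The PA28 activator genes did not follow Psmb8 and Psmb9. Psme1, which encodes PA28 alpha, read 14.53, 14.27 and 14.13 in mock, 14.16, 14.21 and 14.14 under IMQ and 14.23, 14.69 and 14.65 with vanillin. Mock and IMQ arrays overlapped, and the difference was -0.14 ± 0.14 (SE, adjusted p = 0.436). Psme2, which encodes PA28 beta, read 7.94, 7.95 and 7.99 in mock, 7.27, 7.5 and 7.28 under IMQ and 7.95, 7.68 and 7.54 with vanillin. The IMQ arrays lay below all others, and Psme2 fell by 0.61 ± 0.12 (SE, adjusted p = 0.00255) against mock. Its probe was dim, with a mean intensity at percentile 29.7 of all probes, so the size of the change is less certain than for Psme1 at percentile 95.3. Over the 5 inducible probes the median change was 0.46, beside 0.09 over the 31 probes of constitutive subunits and -0.04 over all probes. Without mock replicate 1 the median of the 5 was 0.19 and that of the 31 was 0.16, and without mock replicate 2 they were 0.43 and 0.035. Of the 5, 2 were called higher and 1 lower, and of the 31, 7 higher and 6 lower.

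Among the constitutive partners, Psmb6 and Psmb7 were lower in IMQ and Psmb5 was not called. Psmb6, the caspase-like subunit, read 15.85, 15.52 and 15.52 in mock, 15.35, 15.31 and 15.31 under IMQ and 15.52, 15.67 and 15.42 with vanillin. It fell by 0.31 ± 0.11 (SE, adjusted p = 0.0482), with all IMQ arrays below the mock arrays. Omitting single arrays ended that call in 6 of 9 cases. Without mock replicate 1 the change of Psmb6 was -0.20 (adjusted p = 0.108) and without mock replicate 2 it was -0.36 (0.0508). Without an IMQ array it was -0.32 to -0.30 (0.101 to 0.117), and without vanillin replicate 1 it was -0.31 (0.0642). Psmb7, the trypsin-like subunit, read 12.04, 12.02 and 11.91 in mock, 11.56, 11.63 and 11.53 under IMQ and 11.24, 11.39 and 11.21 with vanillin. The 3 groups did not overlap. Psmb7 fell by 0.42 ± 0.09 (SE, adjusted p = 0.00329) with imiquimod. Psmb5, the chymotrypsin-like subunit, read 14.19, 13.85 and 14.31 in mock, 14.42, 14.54 and 14.36 under IMQ and 14.33, 14.24 and 14.26 with vanillin. Its IMQ arrays were above the mock arrays by 0.32 ± 0.12, which missed the threshold (SE, adjusted p = 0.0522). It was called at 0.42 (adjusted p = 0.0227) without mock replicate 3, and also with dim probes left out (0.0409), an offset of 50 (0.0405), a trended prior (0.0305) or array weights (0.000436).

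**Figure D3:**
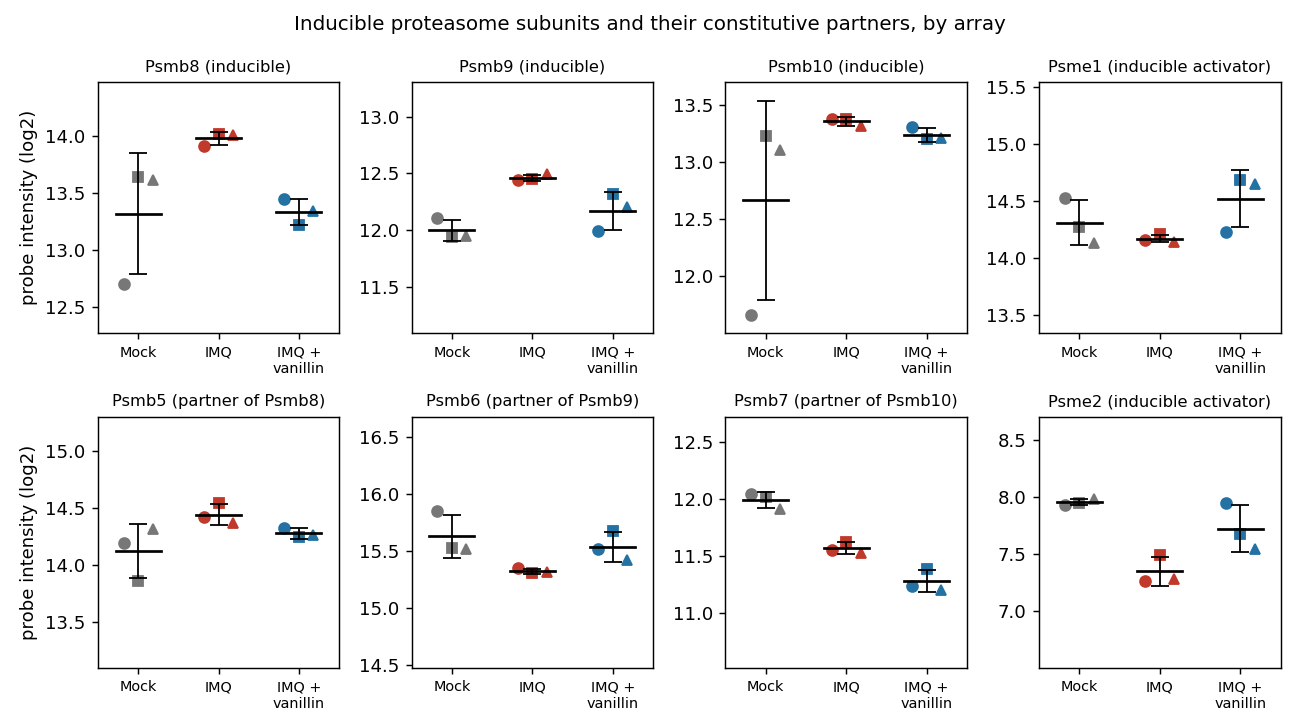
Log2 probe intensity (y axis, each panel spanning 2.2 units) on the 3 arrays of each group (circle, square and triangle for replicates 1, 2 and 3), with the group mean and SD, for the 5 inducible subunits and the 3 constitutive partners. The IMQ arrays are highest for Psmb8 and Psmb9 and, by small margins, for Psmb10 and the constitutive Psmb5. They are lowest for Psmb6 and Psme2, while Psmb7 steps down from mock to IMQ to vanillin.

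Each inducible subunit was also set against the constitutive subunit whose place it takes, as a difference of log2 intensity within the same array. Only changes of such a difference between groups can be read, because levels of different probes are not comparable. Psmb9 minus Psmb6 was -3.63 ± 0.10 in mock, -2.86 ± 0.04 under IMQ and -3.36 ± 0.16 with vanillin (SD, n = 3 arrays each), and no group overlapped another. The difference was higher by 0.77 with imiquimod, 1.70-fold, and was lower by 0.50 with vanillin than with imiquimod alone. Each of these changes had p = 0.10 (exact two-sided permutation test), the smallest value that 3 against 3 arrays can give, and p = 0.15 after Benjamini-Hochberg adjustment over the 9 tests of pairs.

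Psmb10 minus Psmb7 was 0.68 ± 0.92 in mock, 1.79 ± 0.03 under IMQ and 1.96 ± 0.13 with vanillin (SD, n = 3 each). With imiquimod it was higher by 1.11 (exact permutation p = 0.10, adjusted 0.15), or 0.58 without mock replicate 1. Mock arrays did not overlap with either treated group. Vanillin differed from IMQ by 0.18 with overlap (exact permutation p = 0.20, adjusted 0.257) and from mock by 1.29 (0.76 without mock replicate 1). Psmb8 minus Psmb5 was -0.80 ± 0.64 in mock, -0.46 ± 0.10 under IMQ and -0.94 ± 0.08 with vanillin (SD, n = 3 each). The difference of 0.34 between IMQ and mock had an exact permutation p of 0.50 (adjusted 0.563) and came to -0.0042 without mock replicate 1. Vanillin lay 0.48 below IMQ without overlap (exact permutation p = 0.10, adjusted 0.15).

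**Figure D4:**
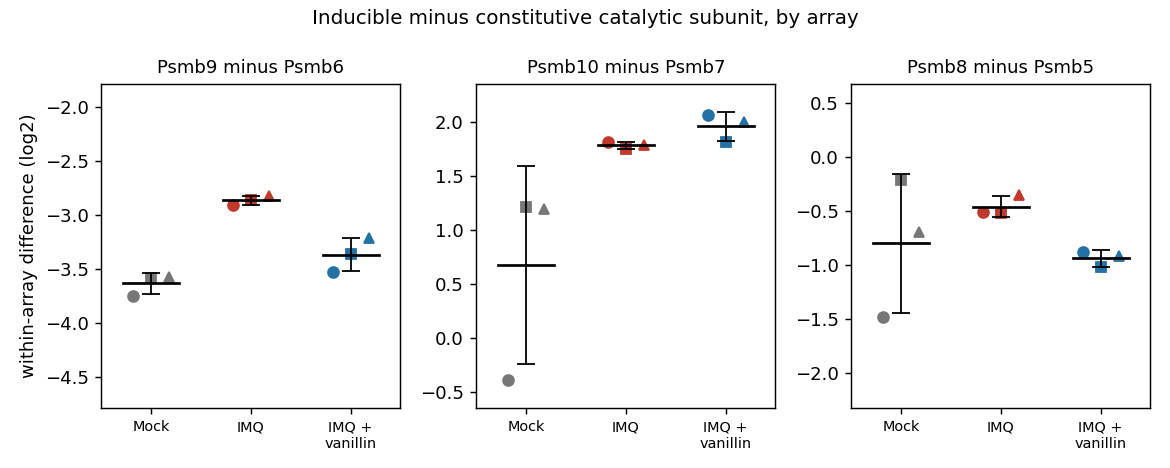
Within-array difference of log2 intensity (y axis, each panel spanning 3 units) between each inducible catalytic subunit and its constitutive partner, on the 3 arrays of each group with mean and SD. Psmb9 minus Psmb6 rises from -3.63 in mock to -2.86 in IMQ and is -3.36 in vanillin skin, and the mock arrays of the other pairs are widely spread, with replicate 1 the lowest in both.

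In the constitutive proteasome, the 13 probes of 20S subunits gave 0 calls higher and 5 lower (limma) with imiquimod, with 8 past no threshold and a median change of -0.10. Among those not called, 4 rose, with every IMQ array above every mock array (limma, adjusted p = 0.0522 to 0.103). These were Psma4 (0.34), Psma6 (0.29), the brighter Psmb1 probe (0.38) and Psmb5 (0.32), and the changes of the others were below 0. The 18 probes of 19S subunits gave 7 calls higher and 1 lower, with 10 past no threshold and a median of 0.28. Over all probes 24.0% were called higher and 29.6% lower, and a difference between core and cap was not tested. Psmc5, a 19S ATPase, showed the largest rise of any member. It read 14.10, 14.07 and 14.11 in mock, 15.03, 15.07 and 15.01 under IMQ and 14.24, 14.26 and 14.49 with vanillin, with no overlap between any groups. The rise was 0.94 ± 0.09 (SE, adjusted p = 5.59e-05), or 1.92-fold.

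Other cap subunits rose less. The ubiquitin receptor gene Psmd4 rose by 0.46 ± 0.12, the ATPase gene Psmc1 by 0.42 ± 0.08 and the large scaffold subunit gene Psmd2 by 0.30 ± 0.08 (SE). Psmd8, a lid subunit, rose by 0.59 ± 0.08 on its brighter probe and by 0.32 ± 0.08 on its dimmer one. Psmc3, an ATPase outside the rule for named genes, was called at 0.25 ± 0.09, but omitting single arrays ended this in 6 of 9 cases (without mock replicate 2 or 3, any IMQ array or vanillin replicate 2, adjusted p = 0.0556 to 0.147). The ATPase gene Psmc2 was the exception, with a fall of 0.50 ± 0.12 (SE, adjusted p = 0.00874). Psmc4 read 15.59, 13.20 and 15.66 in mock and 15.38 to 15.41 in IMQ skin, so that mock replicate 2 alone set its difference of 0.58 ± 0.55 (adjusted p = 0.402). In the core, Psmb2 fell by 0.50 ± 0.12, Psmb4 by 0.37 ± 0.08 and the alpha subunit gene Psma2 by 0.30 ± 0.11 (SE). The other 5 alpha ring probes were not called, and that of Psma5 was near the lowest intensities (percentile 5.18).

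**Figure D5:**
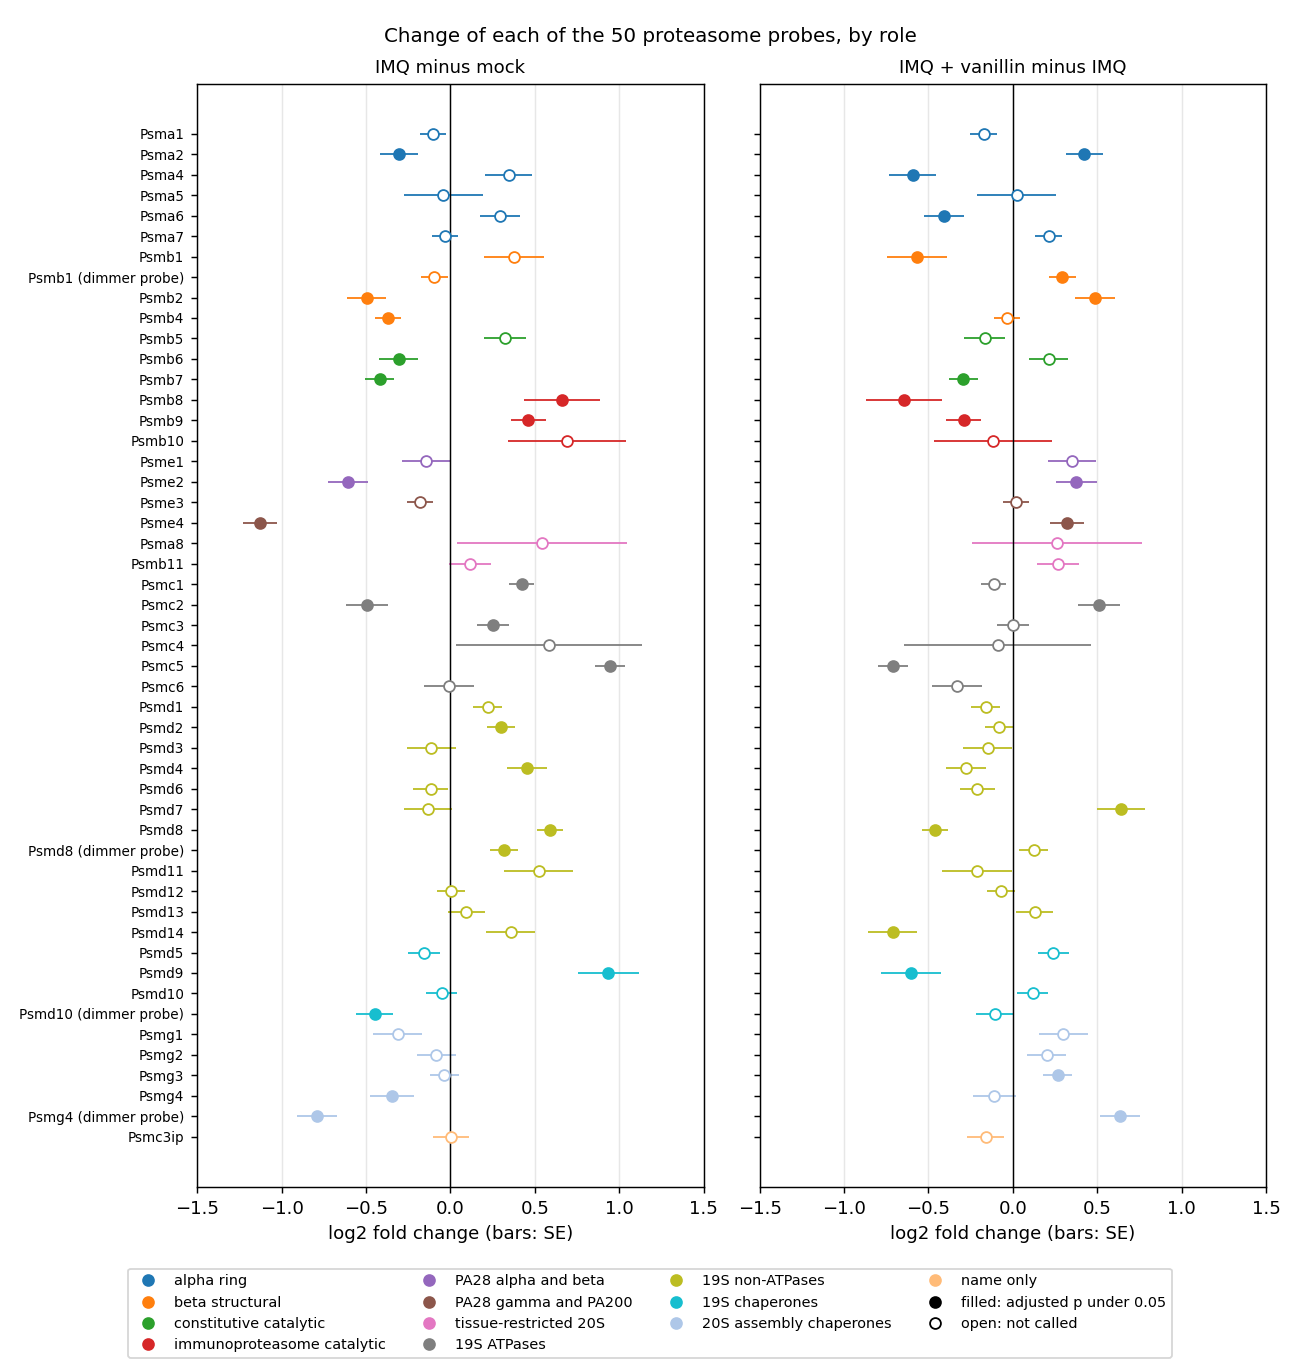
Log2 fold change (x axis, bars SE) of each of the 50 proteasome probes (rows, coloured by role) for IMQ minus mock and for IMQ plus vanillin minus IMQ. Filled points passed an adjusted p under 0.05. In the left panel, 7 of 18 probes of 19S subunits are called higher, among them both Psmd8 probes, and 1 lower. Of 13 probes of constitutive 20S subunits 0 are called higher and 5 lower. Over all probes 24.0% were called higher and 29.6% lower. The largest fall is that of Psme4.

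The alternative caps and the assembly factors gave the largest fall and a further large rise. Psme4, which encodes PA200, a nuclear activator linked to histone degradation, read 13.64, 13.70 and 13.50 in mock, 12.49, 12.52 and 12.44 under IMQ and 12.82, 12.65 and 12.95 with vanillin. The 3 groups did not overlap. Psme4 fell by 1.13 ± 0.10 (SE, adjusted p = 4.42e-05), to a level 2.19-fold lower than in mock. Psme3, which encodes the nuclear activator PA28 gamma, read -0.18 ± 0.08 (adjusted p = 0.0836). Psmd9, a chaperone of 19S base assembly, rose by 0.94 ± 0.18 (SE, adjusted p = 0.00228) from a dim level (percentile 45.3). The chaperone Psmd10 (gankyrin) read -0.05 ± 0.09 on its brighter probe and was called at -0.45 ± 0.11 on its dimmer one. Of the 20S assembly chaperones, Psmg4 was lower on both probes, at -0.35 ± 0.13 on the brighter and -0.79 ± 0.12 on the dimmer one, while Psmg1 (-0.31 ± 0.14), Psmg2 (-0.08 ± 0.11) and Psmg3 (-0.03 ± 0.08) were not called. The germ cell alpha subunit Psma8 (0.54 ± 0.50) and the thymus subunit Psmb11 (0.12 ± 0.12) were dim, at percentiles 32.4 and 22.5, and were not called.

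Of the 17 genes that the rule named as called for IMQ against mock, 12 were called in all 9 fits with 1 array left out. Besides Psmb8 and Psmb6, the exceptions were Psmd2, Psma2 and Psmg4 on its brighter probe. For Psmd2 the call was lost without mock replicate 2 (0.27, adjusted p = 0.0578), IMQ replicate 2 (0.29, 0.0521) and IMQ replicate 3 (0.29, 0.0590). For Psma2 it was lost without mock replicate 1 (-0.20, adjusted p = 0.10), any IMQ array (0.0807 to 0.118) or vanillin replicates 1 and 2 (0.0581 and 0.0527). For Psmg4 it was lost without mock replicate 2 or 3 (-0.28 and -0.26, adjusted p = 0.145 and 0.146), any IMQ array (0.0992 to 0.115) or vanillin replicates 1 and 2 (0.0642 and 0.0594). The dimmer probes of Psmd8, Psmd10 and Psmg4 were called in all 9 fits. Fewer arrays gave fewer calls over the whole array too. Without IMQ replicate 1, 2 or 3, 16, 15 or 15 members were called (32%, 30% and 30%), beside 44.3%, 47.9% and 43.7% of all probes.

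When vanillin was given with imiquimod, 19 of the 50 members were called against IMQ, 9 higher and 10 lower. That was 38%, beside 41.2% of all probes, 24.3% higher and 17.0% lower. No member was called with a change of at least 2-fold, beside 4.78% of all probes. The groups did not overlap for 38 of the 50 members (76%), beside 58.5% of all probes. This comparison shares the IMQ arrays with IMQ against mock, so a gene that read high on them tends to appear raised against mock and lowered with vanillin. Psmb8 was lower with vanillin by 0.64 ± 0.23 (SE, adjusted p = 0.0481) and Psmb9 by 0.29 ± 0.10 (SE, adjusted p = 0.0486), both just past the threshold. The call for Psmb8 was lost without any of the IMQ or vanillin arrays (adjusted p = 0.0743 to 0.124). It was firmer without mock replicate 1 (0.00154) and when the mock arrays were not fitted (0.00407). The call for Psmb9 was lost in 7 of 9 such fits, the exceptions being those without mock replicate 1 and without vanillin replicate 2. Its change was -0.20 (adjusted p = 0.146) without vanillin replicate 1, and adjusted p was 0.0537 to 0.137 in the other 6. When the mock arrays were not fitted it was 0.0573.

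For Psmb10 the vanillin arrays read -0.12 ± 0.35 against IMQ (SE, adjusted p = 0.809). This SE rests on a variance shared with the mock arrays. The SD of Psmb10 was 0.87 among mock arrays, 0.04 among IMQ arrays and 0.06 among vanillin arrays. Every vanillin array lay below every IMQ array, if narrowly (13.31 at most against 13.32 at least). Without mock replicate 1 Psmb10 was still not called (limma, adjusted p = 0.211). Psme2 was higher with vanillin by 0.38 ± 0.12 (SE, adjusted p = 0.0332), a call lost without IMQ replicate 1 or 3 or vanillin replicate 1 or 2 (0.26 to 0.40, adjusted p = 0.0624 to 0.114) and when the mock arrays were not fitted (0.0592). Psme1 read 0.35 ± 0.14 (SE, adjusted p = 0.0811) and was called at 0.50 (0.0247) without vanillin replicate 1. Psmb7 fell further, by 0.29 ± 0.09 (SE, adjusted p = 0.0251), the only member called lower in both comparisons. That call was lost without any IMQ array or without vanillin replicate 1 (-0.31 to -0.27, adjusted p = 0.0639 to 0.0863). Psmb5 (-0.17 ± 0.12) and Psmb6 (0.21 ± 0.11) were not called.

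Outside these 8 genes, 3 rises and 4 falls with vanillin among the named genes, and the rise of the dimmer Psmg4 probe, were called in all 9 fits with 1 array left out. Psmd7, a lid subunit, rose by 0.64 ± 0.14 (SE, adjusted p = 0.00856). It read 15.45, 14.92 and 14.97 in mock, 14.98 on all 3 IMQ arrays and 15.74, 15.63 and 15.50 in vanillin skin. The vanillin arrays were the highest, and this gene had not been called for IMQ against mock (-0.13 ± 0.14). Psmc2 rose by 0.51 ± 0.12 and Psmb2 by 0.49 ± 0.12 (SE). The probes of Psmg4 differed: the dimmer rose by 0.64 ± 0.12 (SE, adjusted p = 0.00447) and the brighter read -0.11 ± 0.13 (SE, adjusted p = 0.523).

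The falls were led by Psmd14, the deubiquitinase of the lid, at -0.71 ± 0.15 (SE, adjusted p = 0.00620). It read 14.48, 14.89 and 15.08 in mock, 15.20, 15.13 and 15.19 under IMQ and 14.40, 14.40 and 14.58 with vanillin, so the vanillin arrays lay below the IMQ arrays and overlapped the mock arrays. Psmc5 fell by 0.71 ± 0.09 (SE, adjusted p = 0.00130), Psma4 by 0.59 ± 0.14 and Psmd8 by 0.46 ± 0.08 on its brighter probe. The dimmer Psmd8 probe read 0.12 ± 0.08 and was not called, and the mean of both probes read -0.17 (adjusted p = 0.0653). The probes of Psmb1 disagreed: the brighter fell by 0.57 ± 0.18 (SE, adjusted p = 0.0313) and the dimmer rose by 0.29 ± 0.08 (SE, adjusted p = 0.0182). Their mean read -0.14 (adjusted p = 0.275). Psma6, outside the rule for named genes, fell by 0.41 ± 0.12.

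Each of the remaining calls for vanillin against IMQ was lost without some arrays. For Psma2 (0.42 ± 0.11) these were IMQ replicates 1 and 3 and vanillin replicates 1 and 2 (adjusted p = 0.0520 to 0.0592). For Psme4 (0.32 ± 0.10) they were any IMQ array and vanillin replicates 1 and 3 (0.0647 to 0.108), and for Psmg3 (0.27 ± 0.08) mock replicate 2, any IMQ array and vanillin replicates 1 and 3 (0.0535 to 0.120). For Psmd9 (-0.60 ± 0.18) they were any IMQ array and vanillin replicates 1 and 2 (0.0572 to 0.0908). For the brighter Psmb1 probe they were any IMQ array (0.0736 to 0.0887) and vanillin replicate 2, without which it read -0.37 (0.0719). For its dimmer probe they were IMQ replicates 1 and 3 and vanillin replicate 2 (0.0583 to 0.0830), and for Psma6 any IMQ array and vanillin replicate 1 (0.0618 to 0.0771). Without IMQ replicate 1, 2 or 3 the count of called members was 8, 11 or 8 (16%, 22% and 16%), while 26.2%, 32.2% and 24.9% of all probes were called. Without vanillin replicate 1 it was 11 (22%), beside 30.5% of all probes.

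In vanillin against mock, which sets skin given imiquimod and vanillin against skin given Vaseline cream, 11 of 50 members were called, 4 higher and 7 lower (22%), beside 26.7% of all probes, 11.9% higher and 14.7% lower. The groups did not overlap for 19 members (38%), beside 37.8% of all probes, and 0 members were called with a change of at least 2-fold, beside 4.48%. Of the 5 inducible subunits 0 were called (limma), and 0 had an unadjusted p under 0.05. Psmb9 read 0.17 ± 0.10 (SE, adjusted p = 0.262), Psmb10 0.57 ± 0.35 (0.272; 0.071 without mock replicate 1, adjusted p = 0.558), Psme1 0.21 ± 0.14 (0.330) and Psme2 -0.23 ± 0.12 (0.195). Psmb8 read 0.02 ± 0.23 (adjusted p = 0.966) but was called at -0.29 (0.0497) without mock replicate 1. Psmb7 was lower than in mock by 0.71 ± 0.09 (SE, adjusted p = 0.000415), Psme4 by 0.81 ± 0.10 (SE, adjusted p = 0.000519) and Psmb4 by 0.40 ± 0.08 (SE, adjusted p = 0.00481), and these 3 were called in all 9 fits with 1 array left out.

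The other named calls against mock were Psmd7 (0.51 ± 0.14), Psmc1 (0.31 ± 0.08), the brighter Psmg4 probe (-0.45 ± 0.13), Psmd6 (-0.33 ± 0.10) and Psma1 (-0.28 ± 0.08). Each was lost when the IMQ arrays were not fitted (adjusted p = 0.0853, 0.0853, 0.0915, 0.126 and 0.121 in that order). Each was lost without mock replicate 2 (0.0959, 0.0503, 0.0997, 0.156 and 0.0562) and without vanillin replicate 1 (0.0843, 0.0510, 0.0717, 0.124 and 0.0676). Leaving out any other array kept the call for Psmc1. Psmd7 was also lost without mock replicate 3, IMQ replicate 1 or vanillin replicate 2 (0.0506 to 0.0941), and Psmg4 without mock replicate 3, IMQ replicate 1 or 3, or vanillin replicate 2 (0.0517 to 0.0964). Psmd6 was called only without mock replicate 1 (0.0124), and Psma1 only without mock replicate 1 or vanillin replicate 3. The dimmer Psmg4 probe read -0.15 ± 0.12 and was not called (adjusted p = 0.395). Outside the rule for named genes, the dimmer probes of Psmd8 (0.44 ± 0.08) and Psmd10 (-0.55 ± 0.11) were called in all 9 fits with 1 array left out. The dim Psmb11 probe (0.39 ± 0.12, adjusted p = 0.0495) was called only without mock replicate 1 or vanillin replicate 1, with adjusted p = 0.0738 to 0.147 in the other 7 fits. The count of called members was 18 (36%) without mock replicate 1, beside 29.4% of all probes, and 5 (10%) without mock replicate 2, beside 20.8%. It was 6 (12%) without mock replicate 3, IMQ replicate 1 or vanillin replicate 1 or 2, beside 22.2% to 23.5% of all probes, and 7 (14%) without IMQ replicate 3, beside 22.9%.

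Other genes of the pathway were taken from fixed lists with the brightest probe of each gene. The counts in these lists stand beside 24.0% of all probes called higher and 29.6% lower for IMQ against mock. The shares were 24.3% and 17.0% for vanillin against IMQ, and 11.9% and 14.7% for vanillin against mock. Of 11 measured proteasome partners outside the name rule, 2 rose with imiquimod, 0 fell and 9 did not pass the threshold. Uchl5, a deubiquitinase of the 19S cap, rose by 1.07 ± 0.16 (SE, adjusted p = 0.000676) and Nfe2l1, the transcription factor that induces proteasome genes when degradation is impaired, by 0.87 ± 0.10 (SE, adjusted p = 0.000161). With vanillin both were lower than with imiquimod alone, at -0.54 ± 0.16 and -0.51 ± 0.10, and Sem1, a small 19S subunit, was higher at 0.32 ± 0.08. The maturation factor gene Pomp read -0.05 ± 0.10 and 0.02 ± 0.10 in these comparisons. Against mock 4 partners were called higher and 0 lower.

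Of 10 measured genes of MHC class I presentation, 2 rose with imiquimod, 1 fell and 7 did not pass the threshold. The chaperones Calr (2.19 ± 0.29) and Canx (0.96 ± 0.15) rose and Nlrc5, the transactivator of MHC class I genes, fell by 0.61 ± 0.09 (SE). A dimmer Nlrc5 probe read 0.43 ± 0.17 and was not called. The neighbours of Psmb8 and Psmb9 were not called: Tap1 read -0.07 ± 0.12 (adjusted p = 0.659) and Tap2 0.03 ± 0.09 (adjusted p = 0.781). With vanillin against IMQ, Nlrc5 (0.71 ± 0.09) and the tapasin-related gene Tapbpl (0.57 ± 0.17) were higher and Calr (-1.44 ± 0.29) and Canx (-0.78 ± 0.15) lower. The dimmer Nlrc5 probe read 0.03 ± 0.17 (adjusted p = 0.889) and a dimmer Canx probe -0.19 ± 0.08 (adjusted p = 0.0948), and neither was called. For vanillin against mock 0 of the 10 were called (limma), beside 26.7% of all probes, and 1, Calr, had an unadjusted p under 0.05.

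Of 13 measured genes of interferon signalling, 4 rose with imiquimod, 5 fell and 4 did not pass the threshold. Jak2, a kinase of the interferon-gamma receptor, fell by 1.34 ± 0.09 (SE, adjusted p = 1.23e-05), its receptor chain Ifngr1 by 0.90 ± 0.13 and the interferon-gamma gene Ifng by 0.43 ± 0.11. Jak1 rose by 0.94 ± 0.13, the brighter Ifnar1 probe by 0.81 ± 0.09 and the receptor chain Ifngr2 by 0.72 ± 0.12. A dimmer Ifnar1 probe went the other way, at -1.05 ± 0.12. A dimmer Ifngr2 probe read 0.17 ± 0.11 and was not called (limma, adjusted p = 0.199). Irf1, an activator of immunoproteasome genes, read 0.08 ± 0.14 (adjusted p = 0.658), and rose by 0.43 ± 0.14 (SE, adjusted p = 0.0406) with vanillin against IMQ. A dimmer Irf1 probe, near the lowest intensities (percentile 6.05), read -0.25 ± 0.25 and -0.23 ± 0.25 in these comparisons and was not called. With vanillin against IMQ 7 of the 13 were called higher and 2 lower, and against mock 4 were higher and 3 lower.

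Markers of leukocytes, in which the inducible subunits are constitutive, were set beside Psmb8 and Psmb9. Of 12 leukocyte markers, 10 were called higher with imiquimod and 0 lower, with Coro1a at 1.12 ± 0.09 and Ptprc (CD45) at 0.83 ± 0.10 on its brighter probe. Their summed intensity was 37997 to 49014 on mock arrays, 80749 to 82331 on IMQ arrays and 62264 to 65947 on vanillin arrays. With vanillin against IMQ, 4 of the 12 leukocyte markers were called lower and 1 higher. With vanillin against mock, 7 were called higher and 0 lower, while Psmb8 (0.02 ± 0.23) and Psmb9 (0.17 ± 0.10, SE) were not called. Of 6 T cell markers 3 were called higher with imiquimod and 0 lower, and of 9 macrophage and dendritic cell markers 3 higher and 4 lower. Skeletal muscle markers fell in 4 of 7 and adipocyte markers in 6 of 7 with imiquimod, and their summed intensities were 322967 to 357426 and 213542 to 240993 on mock arrays and 263985 to 270487 and 165710 to 169743 on IMQ arrays, and 330873 to 347840 and 156348 to 171878 on vanillin arrays. With vanillin against IMQ, 6 of the 7 muscle markers rose and 0 fell (median 0.51), and 5 of the 7 adipocyte markers rose and 1, Fabp4, fell (median 0.66). Of 9 keratinocyte markers 4 rose and 1 fell with imiquimod (median 0.24, from -0.72 to 3.43), with Krt1 the highest at 3.43 ± 0.12. A dimmer Ivl probe rose by 0.85 ± 0.08 and a dimmer Trp63 probe fell by 1.34 ± 0.10 (SE). Another dimmer Trp63 probe read -0.21 ± 0.08 and was not called. The sums of the keratinocyte markers were 1248737 to 1387745 on mock, 1585946 to 1637309 on IMQ and 1666184 to 1716396 on vanillin arrays. Of 6 fibroblast markers 2 rose and 4 fell with imiquimod, and of 10 hair follicle keratins 1 rose and 4 fell. With vanillin against IMQ the counts were 1 higher and 0 lower for keratinocytes, 2 and 1 for fibroblasts and 0 and 1 for hair follicle keratins. Among the T cell markers the sums were 11620 to 12458, 12830 to 13383 and 13799 to 14200, and among the macrophage and dendritic cell markers 24409 to 24896, 25327 to 26624 and 23518 to 25194, for mock, IMQ and vanillin arrays in turn. No leukocyte, T cell, macrophage and dendritic cell, muscle, adipocyte or keratinocyte marker was at 0, the lowest reading being 6.44 on the log2 scale. The part of these cell types in the changes of the proteasome genes was not tested. In whole tissue, fewer cells of a type and less RNA per cell cannot be told apart.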

How the data were processed

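Cy5-labelled RNA was read on 9 arrays of a single colour, 3 in each group, per the labels' protocols. The deposited table holds linear probe intensities of 26423 probes whose distributions the authors had made nearly equal across arrays, and limma, without a version, is named per the submitters' processing notes. The steps of scanning, background subtraction and filtering are not stated in the sources used here. Equalised intensities cannot show a change of total signal.

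Values under 1 were set to 1 and log2 was taken, with no filter. A linear model with group means was fitted to the 9 arrays with limma 3.58.1 under R 4.3.3, and p-values were adjusted across the whole array (Benjamini-Hochberg) for each contrast. The fit was tested on simulated data. Symbols came from the platform annotation (20377 probes with a symbol, 6046 with none listed) and were updated through a RefSeq table of GRCm38.p6, used for names and gene order, where 18213 were current and 2126 synonyms. All 50 member symbols were current. A gene with 2 probes is represented by the brighter.

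Named genes are the 5 inducible subunits, their 3 constitutive partners, and up to 6 largest called rises and falls per comparison among the other members above the lowest 25% of probe means. From the outside lists the called genes with the smallest p are named. The members and lists were chosen with earlier results of these data known. Alternatives changed the normalization, dim-probe filter, offset, spread prior, array weights, arrays in the fit, replicate block, threshold and unit counted, and left out each array in turn.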

Additional observations from a re-analysis of the deposited data

How the results depend on the processing

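Quantile normalization, median centring, the dim-probe filter, the offset of 50, a trended robust prior and counting by gene left each count of called members within 1.5 times its value, and no gene described reversed under them. With array weights 34, 31 and 24 members were called for IMQ against mock, vanillin against IMQ and vanillin against mock, in place of 21, 19 and 11, and the shares of all probes were 75%, 61.3% and 38.8%, beside 68%, 62% and 48% of members. At adjusted p under 0.01 the counts were 13, 5 and 5 (26%, 10% and 10%), and over all probes 10296, 5457 and 4231 (39%, 20.7% and 16%). When the IMQ arrays were not fitted, 5 members (10%) and 17.9% of all probes were called for vanillin against mock. Leaving out 1 array gave 15 to 24, 8 to 22 and 5 to 18 called members, and 11551 to 15901, 6576 to 12805 and 5507 to 7767 called probes. Without vanillin replicate 3, 60.2% and 48.5% of all probes were called for IMQ against mock and vanillin against IMQ, beside 46% and 36% of members. Psmb8 for vanillin against mock turned to -0.24 with array weights, -0.29 without mock replicate 1 and -0.04 without vanillin replicate 1 (range -0.29 to 0.18 over arrays left out), and Psmb6 to 0.031 with array weights and 0.016 without mock replicate 1 (range -0.16 to 0.016). Psmb8 minus Psmb5 ranged from -0.0042 to 0.63 for IMQ against mock and from -0.48 to 0.15 for vanillin against mock when 1 array was left out. The causes were not tested.

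Replicate numbers were shared between groups, and the labels do not say that arrays were paired. Deviations from the group means correlated at -0.27 to 0.22 between same-numbered arrays and at -0.18 to 0.26 between other arrays of different groups. With a replicate block 18, 14 and 8 members were called (36%, 28% and 16%), beside 51.5%, 37.7% and 23.6% of all probes. Dim probes (Psma5, Psma8, Psmb11, Psme2) and 3 arrays per group limit what could be seen.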
